A study of Mus musculus with 6 samples.

Results

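The proteasome genes of mouse B cells were compared between cells given IL-4 with bryostatin 1 and cells given IL-4 alone. Members were taken by name: every gene whose symbol begins Psma, Psmb, Psmc, Psmd, Psme, Psmf or Psmg followed by a digit and that has an mRNA row, except Psmb8, Psmb9 and Psmb10, the inducible catalytic subunits. This gave 48 of the 46316 gene symbols in the count table, and each gene was represented by the transcript row with its highest mean count. Membership rested on the symbol and the mRNA label, and the mean count over all 6 samples chose only the row, with no regard to group.

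B cells from mice labelled WT were kept for 2 days with 500 ng/mL of an antibody to mouse CD40, a receptor through which T cells activate B cells. One group received 5 ng/mL IL-4 with 0.8 nM bryostatin 1, a marine macrolide that activates protein kinase C, and the other received 5 ng/mL IL-4 alone. Each group had 3 samples, and RNA was read by sequencing. No label ties a sample to its own mouse or culture. The p-values therefore reflect variation among the deposited samples, part or all of which could be technical. The IL-4 and anti-CD40 were common to both groups.

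The proteasome is the protease that degrades most proteins tagged with ubiquitin. Its core particle is a barrel of outer alpha rings and inner beta rings, and the proteolytic sites sit on the beta subunits encoded by Psmb5, Psmb6 and Psmb7. A regulatory particle caps the barrel: a ring of ATPases (Psmc genes) unfolds substrates and feeds them in, and the non-ATPase subunits (Psmd genes) bind ubiquitin and remove it. In cells exposed to interferon, and constitutively in lymphocytes, Psmb8, Psmb9 and Psmb10 can take the place of Psmb5, Psmb6 and Psmb7 to form the immunoproteasome. The members covered 16 core particle genes, 17 regulatory particle genes, 7 assembly chaperones, 6 activator or inhibitor genes, and 2 genes matched by name only, Psmc3ip and Psme3ip1, which encode proteins that interact with another member and are not subunits.

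Total counts, summed over 1 row per gene, lay between 19959958 and 24896409 per sample. The B cell markers Cd79a, Cd79b, Ms4a1, Pax5, Cd22 and Blk were all expressed, and these 6 summed to 3767 to 4007 CPM (counts per 1000000 of the scaled library total) in the IL-4 + bryostatin 1 samples, against 4856 to 5099 CPM in the IL-4 samples. With IL-4 + bryostatin 1, T cell markers summed to 2.54 to 3.27 CPM, NK cell markers to 3.39 to 4.71 CPM and myeloid markers, mostly Adgre1, to 22.1 to 25.2 CPM. With IL-4 alone, T cell markers summed to 0.777 to 1.37 CPM, NK cell markers to 3.64 to 5.25 CPM and myeloid markers to 5.07 to 8.19 CPM. Red blood cell markers, nearly all Hbb-bt, summed to 23.9 to 30.7 CPM in the IL-4 + bryostatin 1 samples, against 0.640 to 1.42 CPM in the IL-4 samples, while Alas2, an enzyme of haem synthesis in red cell precursors, had no count in any sample. The part of these other markers in the proteasome values was not tested.

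In the promoters, the set of RefSeq start sites used (GRCm38.p6) held 40 of the 48 members. It gave 44 windows running from 250 bases before to 50 bases after a start. The genes with no entry in that set were Psma8, Psmb1, Psmb2, Psmb7, Psmc3, Psmd3, Psmd7 and Psmg2. The motifs searched were 4, on both strands: TGACNNNGC, the core of the element bound by NRF1 and its partners, CCAAT, the box bound by NF-Y, CACGTG, the E-box, and TGANTCA, the AP-1 site. TGACNNNGC and TGANTCA can share letters, but no match to one overlapped a match to the other in a member. TGACNNNGC was in 6 of the 44 windows (13.6%), against 12.4% of the 32851 windows of all promoters. CCAAT was in 15 of 44 (34.1%) against 37.4%, CACGTG in 4 of 44 (9.09%) against 7.15%, and TGANTCA in 2 of 44 (4.55%) against 7.81%. These shares are descriptions of letters in a window and say nothing about whether a factor bound there.

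The TGACNNNGC match stood close before the start in the catalytic subunit genes Psmb5 and Psmb6, at 47 and 9 bases from its first base to the start. These stretches are shown because they belong to constitutive catalytic subunits, with the match in capitals:
Psmb5, chr14:54617996-54618082, minus strand: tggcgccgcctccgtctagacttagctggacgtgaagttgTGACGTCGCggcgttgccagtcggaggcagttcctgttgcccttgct
Psmb6, chr11:70525308-70525356, plus strand: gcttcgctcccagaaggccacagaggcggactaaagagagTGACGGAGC

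A CCAAT box stood in the promoters of the alpha ring genes with the largest rises, Psma7 and Psma6, and of the ATPase genes Psmc2, which rose, and Psmc1, which was not called. The genes shown were picked with their changes known. Psmc6, Psmd8 and Psme4, with log2 fold changes of 0.38, 0.35 and 0.31, had no CCAAT box in their windows. Psma1, Psma2 and Psma3, at 0.16, 0.11 and 0.16, held the box. The match is in capitals, and its first base lay 196, 29, 28 and 175 bases before the start in Psma7, Psma6, Psmc2 and Psmc1. Psma6 held a further match at 136 bases, on the other strand and outside the stretch shown:
Psma7, chr2:180042616-180042700, minus strand: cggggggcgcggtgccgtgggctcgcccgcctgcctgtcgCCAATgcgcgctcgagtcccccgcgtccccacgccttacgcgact
Psma6, chr12:55384153-55384221, plus strand: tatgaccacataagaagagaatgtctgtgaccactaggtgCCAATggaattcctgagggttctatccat
Psmc2, chr5:21785207-21785274, plus strand: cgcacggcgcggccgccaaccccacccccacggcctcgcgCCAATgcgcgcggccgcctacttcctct
Psmc1, chr12:100109987-100110071, plus strand: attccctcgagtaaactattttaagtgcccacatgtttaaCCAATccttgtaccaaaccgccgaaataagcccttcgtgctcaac

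Of the tested members with a promoter entry, 13 of the 14 with a CCAAT box were called higher in IL-4 + bryostatin 1 samples, with a median log2 fold change of 0.19. Of the 25 without one, 12 were called higher, and the median of the 25 was 0.094. The 13 with the box included Psmc3ip and Psme3ip1, which are not subunits. Over all tested genes with an entry the shares were near each other: 31.7% of 4325 genes with the box and 33.1% of 5553 genes without it were called higher. The difference between members with and without the box was not tested, and it was noticed after the calls were known. With TGACNNNGC, 4 of 6 members were called higher and without it 21 of 33, against 34.7% and 32% of all tested genes with an entry. For CACGTG the counts were 3 of 4 members with the motif and 22 of 35 without, against 32.8% and 32.4% of all genes. For TGANTCA they were 1 of 2 with and 24 of 37 without, against 36% and 32.3%. Transcripts of 2 subunits of NF-Y itself were lower in IL-4 + bryostatin 1 samples, Nfya by a log2 fold change of -0.29 and Nfyc by -0.21, while the third subunit gene, Nfyb, was higher at 0.15.

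Most proteasome genes were modestly higher in IL-4 + bryostatin 1 samples, and none was called lower. Of the 48 members, 46 passed the filter on low counts, and 29 of these were called higher at an adjusted p under 0.05 in edgeR's quasi-likelihood test. Over all 13864 genes tested, 29.9% were called higher and 28.3% lower. The median log2 fold change of the 46 members was 0.13, against -0.00063 over all genes tested, and 44 of the 46 values were above 0. The changes were small: the range ran from -0.094 for Psmd5 to 0.38 for Psmc6, and no member passed 0.5 in either direction, whereas 25.9% of all tested genes did. No member was lower at an unadjusted p under 0.05 either, and DESeq2 called 26 higher and 0 lower.

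Standard errors of the members lay between 0.034 and 0.076 on the log2 scale, and most members were well counted. The members were also set beside genes averaging 50 CPM or more, a background chosen after the data were seen. Of those 4427 genes 37.9% were called higher and 32.3% lower, and their median log2 fold change was 0.020. At the same level 26 of 39 members were called higher and 0 lower. Groups did not overlap, with the IL-4 + bryostatin 1 samples above, for 31 of the 46 members, against 32.7% of all genes tested. Fewer cells of a type and less RNA per cell cannot be told apart in these bulk samples, and all values are relative to the total RNA counted.

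One sample sat low within its group. The first IL-4 + bryostatin 1 sample had the lowest value of its group for 42 of the 46 tested members, and among the IL-4 samples the first had the lowest for 32. Without that IL-4 + bryostatin 1 sample 33 members were called higher, and without any other single sample between 22 and 27 were. Over all genes, 3986 of 14072 were called higher without it. Without any other single sample, 3720 to 4050 of 14099 to 14151 genes were. How many of all genes had their lowest value in these samples was not counted. Psmc3, an ATPase of the regulatory particle, showed the low first IL-4 + bryostatin 1 sample most. It had 200.1, 241 and 249 CPM in samples given IL-4 + bryostatin 1, against 219, 220.03 and 228 CPM in samples given IL-4. Its groups overlapped (log2 fold change 0.048, adjusted p = 0.502), but without the first IL-4 + bryostatin 1 sample its log2 fold change was 0.14, with an edgeR adjusted p of 0.0059.

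**Figure D1:**
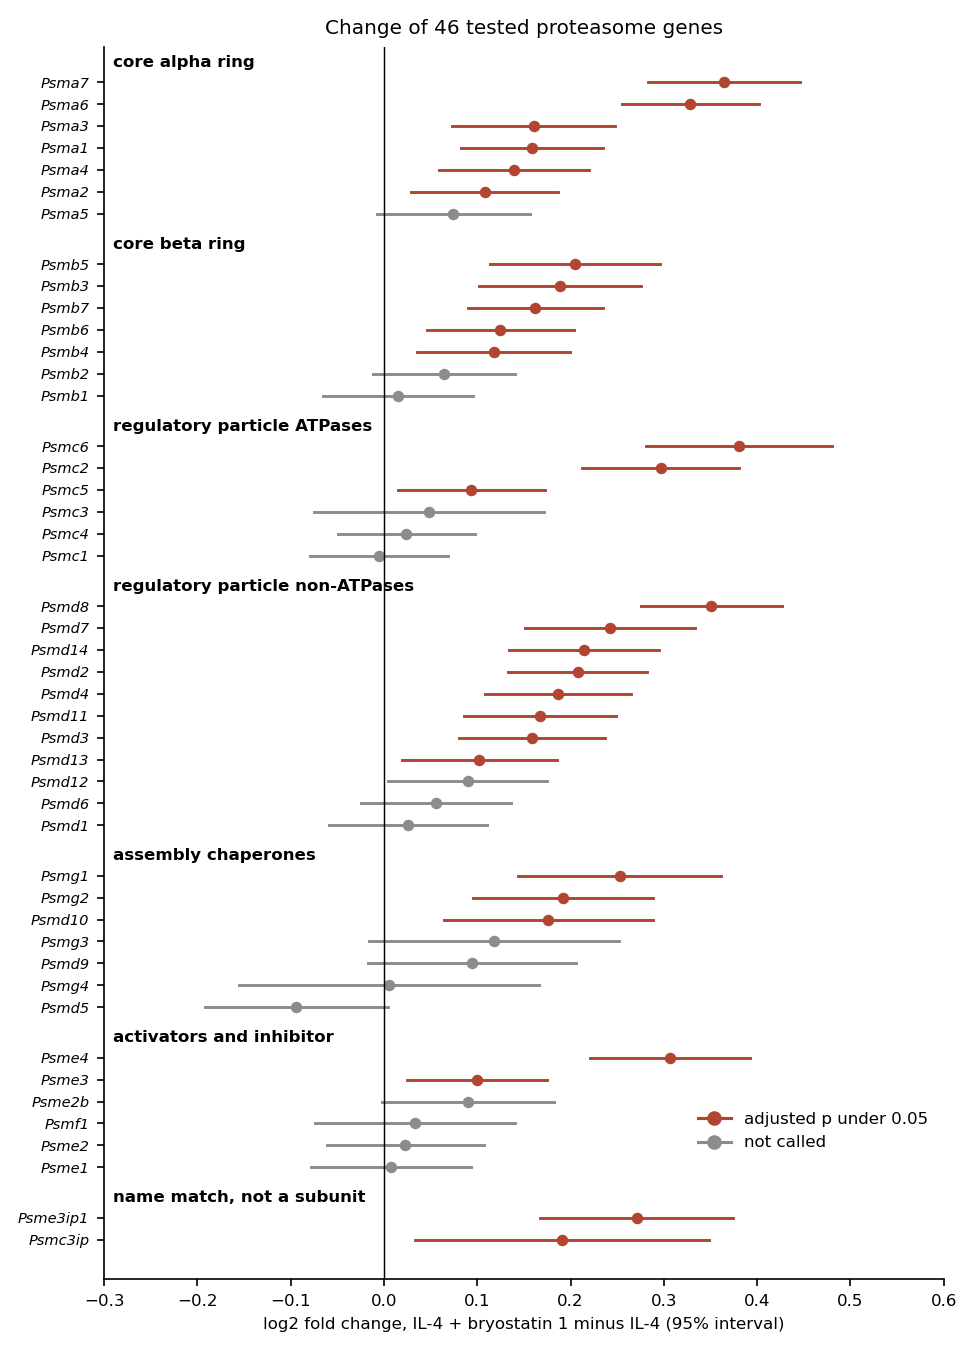
Log2 fold change (IL-4 + bryostatin 1 minus IL-4) of the 46 tested proteasome genes, ordered within each subgroup, with 95% intervals from the edgeR fit. Red points passed an adjusted p of 0.05. All 29 called genes lie right of 0, and the points left of 0 are Psmc1 and Psmd5, neither of them called.

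The outer alpha rings of the core gate the entry of substrates, and most alpha ring genes rose. Of the 7 tested, 6 were called higher, against 29.9% of all genes tested, and the median log2 fold change of the 7 was 0.16. Psma7 had 232, 248 and 255 CPM in samples given IL-4 + bryostatin 1, against 188, 189 and 193 CPM in samples given IL-4. Its groups were well apart, the lowest IL-4 + bryostatin 1 sample lying above every IL-4 sample (log2 fold change 0.36, SE 0.039, adjusted p = 2.63e-07 by edgeR). Psma6, the next largest, had 304, 308 and 313 CPM in samples given IL-4 + bryostatin 1, against 238, 247 and 252 CPM in samples given IL-4. The groups did not overlap here either (log2 fold change 0.33, SE 0.035, adjusted p = 2.78e-07). Psma1, Psma3 and Psma4 rose less, by log2 fold changes of 0.16, 0.16 and 0.14. 

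Psma2 was nearer the threshold, with 262, 283 and 279 CPM in samples given IL-4 + bryostatin 1, against 256, 249.7 and 259 CPM in samples given IL-4. The groups lay close without touching, and the call (log2 fold change 0.11, adjusted p = 0.0192) was lost at an adjusted p of 0.052 when counts were summed over the rows of each gene. It was also lost without the second IL-4 sample (adjusted p = 0.117), or without the second or the third IL-4 + bryostatin 1 sample (0.0792 and 0.0623). Psma5 was the alpha subunit not called: it had 161, 171 and 171 CPM in samples given IL-4 + bryostatin 1, against 153, 161 and 163 CPM in samples given IL-4, and the groups overlapped (log2 fold change 0.074, SE 0.039, adjusted p = 0.113). It was called with total-count scaling (adjusted p = 0.0195) and without the first IL-4 + bryostatin 1 sample (adjusted p = 0.0428). Total-count scaling moved the median log2 fold change of all genes tested from -0.00063 to 0.028. A processed copy of Psma5, Psma5-ps, is listed separately in the table and was not called. Reads from such near-identical copies may be split between rows in a way the counting does not show. Psma8, the germ cell form of Psma7, had 13, 3 and 3 counts in the IL-4 + bryostatin 1 samples, against 0, 1 and 0 counts in the IL-4 samples, and did not pass the filter.

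Among the beta rings, the constitutive catalytic subunits were each called higher. Of the 7 beta ring genes tested, 5 were called higher, against 29.9% of all genes tested. Psmb5, which carries the chymotrypsin-like site, had 126, 139 and 139.8 CPM in samples given IL-4 + bryostatin 1, against 118, 113 and 119 CPM in samples given IL-4. Every IL-4 + bryostatin 1 sample lay above the IL-4 samples, though the first only by a small margin (log2 fold change 0.21, SE 0.043, adjusted p = 5.43e-04). Psmb6, with the caspase-like site, had 156, 165 and 163 CPM in samples given IL-4 + bryostatin 1, against 143, 149 and 151 CPM in samples given IL-4. The groups were apart by less than in Psmb5 in log2 terms (log2 fold change 0.12, SE 0.037, adjusted p = 0.00814). Psmb7, with the trypsin-like site, had 248, 254 and 248 CPM in samples given IL-4 + bryostatin 1, against 217, 227 and 225 CPM in samples given IL-4, and its samples lay close together within each group (log2 fold change 0.16, SE 0.034, adjusted p = 5.76e-04). Psmb5 and Psmb6 are the genes whose promoter stretches with TGACNNNGC are printed, and Psmb7 had no promoter entry.

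The non-catalytic beta subunits were mixed. Psmb3 and Psmb4 were called higher at log2 fold changes of 0.19 and 0.12, while Psmb1 and Psmb2 were not called. The call of Psmb4 was lost without the second IL-4 sample, or without the second or the third IL-4 + bryostatin 1 sample (adjusted p between 0.0555 and 0.0818). Psmb1 had 255, 263 and 269.5 CPM in samples given IL-4 + bryostatin 1, against 249, 259 and 272 CPM in samples given IL-4, with full overlap of the groups (log2 fold change 0.015, SE 0.038, adjusted p = 0.761). Psmb2 had 145, 152 and 147 CPM in samples given IL-4 + bryostatin 1, against 140.1, 139 and 145 CPM in samples given IL-4. Its groups did not overlap, but the gap was too small to be called (log2 fold change 0.064, SE 0.036, adjusted p = 0.14), except when libraries were scaled by total counts alone (adjusted p = 0.0273). Psmb11, the thymus-specific beta subunit, had at most 1 count in any sample and was not tested. 

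**Figure D2:**
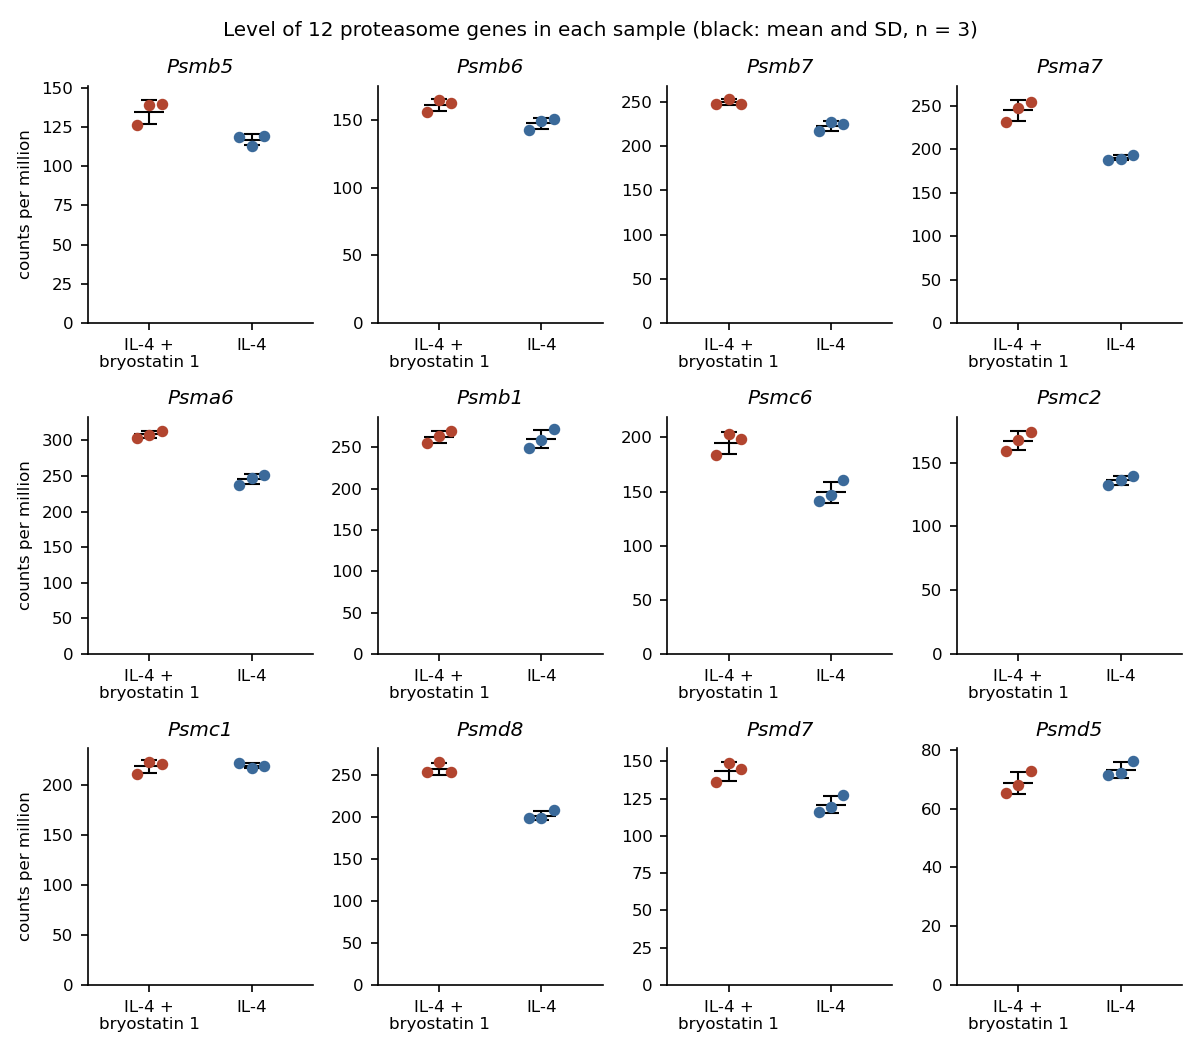
CPM of 12 proteasome genes in each sample, IL-4 + bryostatin 1 on the left and IL-4 on the right of each panel. Points are samples, and the black bars give the mean and SD of 3 samples. Psma7, Psma6, Psmc6, Psmc2 and Psmd8 separate clearly, whereas Psmb1, Psmc1 and Psmd5 overlap between groups.

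In the regulatory particle, the 6 ATPases form 1 ring, and 3 of their transcripts were called higher, against 29.9% of all genes tested. Psmc6 and Psmc2 had 2 of the larger changes among all members, Psmc5 was just past the threshold, and Psmc1, Psmc3 and Psmc4 were not called. Psmc6 had 183, 203 and 199 CPM in samples given IL-4 + bryostatin 1, against 142, 147 and 160.4 CPM in samples given IL-4, with no overlap (log2 fold change 0.38, SE 0.047, adjusted p = 1.84e-06). Psmc2 had 159, 168 and 174 CPM in samples given IL-4 + bryostatin 1, against 132, 137 and 139 CPM in samples given IL-4, again with no overlap (log2 fold change 0.30, SE 0.04, adjusted p = 4.83e-06). At the other end, Psmc1 had 211, 223 and 221 CPM in samples given IL-4 + bryostatin 1, against 222, 217 and 219 CPM in samples given IL-4, and the first IL-4 + bryostatin 1 sample was the lowest of all (log2 fold change -0.0057, SE 0.035, adjusted p = 0.903).

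The 95% interval of Psmc1, -0.08 to 0.068, ended below that of Psmc2, which began at 0.21. The difference between the ATPases was not itself tested. Psmc4 had a log2 fold change of 0.024. Psmc5 had 164, 166 and 169 CPM in samples given IL-4 + bryostatin 1, against 161, 149 and 158 CPM in samples given IL-4. Its narrow margin (log2 fold change 0.094, adjusted p = 0.0405) did not hold under 4 of the 8 alternatives that kept all samples, with adjusted p between 0.0531 and 0.0866. It was also lost without the second IL-4 sample (adjusted p = 0.277), or without the second or the third IL-4 + bryostatin 1 sample (0.0676 and 0.106).

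Of the 11 non-ATPase subunits, 8 were called higher, against 29.9% of all genes tested, with a median log2 fold change of 0.17 over the 11. Psmd8, a subunit of the lid, had 253, 265 and 253 CPM in samples given IL-4 + bryostatin 1, against 198, 199 and 208 CPM in samples given IL-4. All IL-4 + bryostatin 1 samples were above all IL-4 samples (log2 fold change 0.35, SE 0.036, adjusted p = 1.67e-07). Psmd14, the deubiquitinase of the lid, and Psmd7, the subunit it pairs with, rose by log2 fold changes of 0.21 and 0.24. Psmd7 averaged 143 ± 6.44 CPM with IL-4 + bryostatin 1 and 121 ± 5.80 CPM with IL-4 (SD, n = 3 each). Psmd4, a receptor for ubiquitin chains, and Psmd2, the scaffold to which shuttle proteins dock, rose by 0.19 and 0.21.

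Psmd3 and Psmd11 of the lid were called at 0.16 and 0.17. Psmd13, also of the lid, was called by a small margin: it had 135, 144 and 148 CPM in samples given IL-4 + bryostatin 1, against 132, 134 and 133 CPM in samples given IL-4. The groups did not overlap, and the call (log2 fold change 0.10, adjusted p = 0.0345) did not hold with DESeq2 (adjusted p = 0.0726) or with summed rows (0.0867), nor without any one sample other than the first IL-4 + bryostatin 1 sample. Psmd1, the other large scaffold, had 263, 276 and 276 CPM in samples given IL-4 + bryostatin 1, against 251, 277 and 272 CPM in samples given IL-4, which overlapped (log2 fold change 0.026, SE 0.04, adjusted p = 0.609). Psmd6 had 126, 131 and 133 CPM in samples given IL-4 + bryostatin 1, against 121, 127 and 127 CPM in samples given IL-4, with overlap (log2 fold change 0.056, SE 0.038, adjusted p = 0.222), and was called only with total-count scaling (adjusted p = 0.0475). Psmd12 had 149, 166 and 159 CPM in samples given IL-4 + bryostatin 1, against 148, 150.4 and 147 CPM in samples given IL-4. Its first IL-4 + bryostatin 1 sample lay among the IL-4 samples, and it missed the threshold (log2 fold change 0.09, SE 0.04, adjusted p = 0.0665) but passed it with total-count scaling (adjusted p = 0.0136). The remaining ubiquitin receptor, Adrm1, and Sem1, a small lid subunit, carry other symbols and were not members. Neither was called, at log2 fold changes of 0.061 and 0.074.

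Set against each other, the core and regulatory particles shifted by nearly the same amount on average, though not evenly within each particle. In the core 11 of 14 tested genes were called higher, with a median log2 fold change of 0.15. In the regulatory particle 11 of 17 were, with a median of 0.16. Of all genes tested, 29.9% were called higher. By subgroup, the medians were 0.16 in the alpha ring, 0.12 in the beta ring, 0.071 in the ATPases and 0.17 in the non-ATPases. Mean log2 CPM over the 14 core genes was 7.68, 7.76 and 7.75 in the IL-4 + bryostatin 1 samples, against 7.53, 7.57 and 7.61 in the IL-4 samples. Over the 17 regulatory genes it was 7.50, 7.59 and 7.59 in the IL-4 + bryostatin 1 samples, against 7.38, 7.40 and 7.44 in the IL-4 samples. Both scores were higher in every IL-4 + bryostatin 1 sample than in any IL-4 sample.

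The difference of the core mean and the regulatory mean within a sample did not separate the groups. It was 0.18, 0.17 and 0.16 in the IL-4 + bryostatin 1 samples, against 0.16, 0.17 and 0.17 in the IL-4 samples. The group means differed by 0.0028, which was smaller than the SD of 0.013 in the IL-4 + bryostatin 1 samples and of 0.0073 in the IL-4 samples. Summed CPM gave the same picture: core genes summed to 3064 ± 87.7 CPM in IL-4 + bryostatin 1 samples and 2740 ± 71.0 CPM in IL-4 samples (SD, n = 3 each), a ratio of 1.12. Regulatory genes summed to 3327 ± 120.3 CPM in IL-4 + bryostatin 1 samples and 2990 ± 61.4 CPM in IL-4 samples (SD, n = 3 each), a ratio of 1.11. No test was run on these scores, since they are averages over chosen genes.

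**Figure D3:**
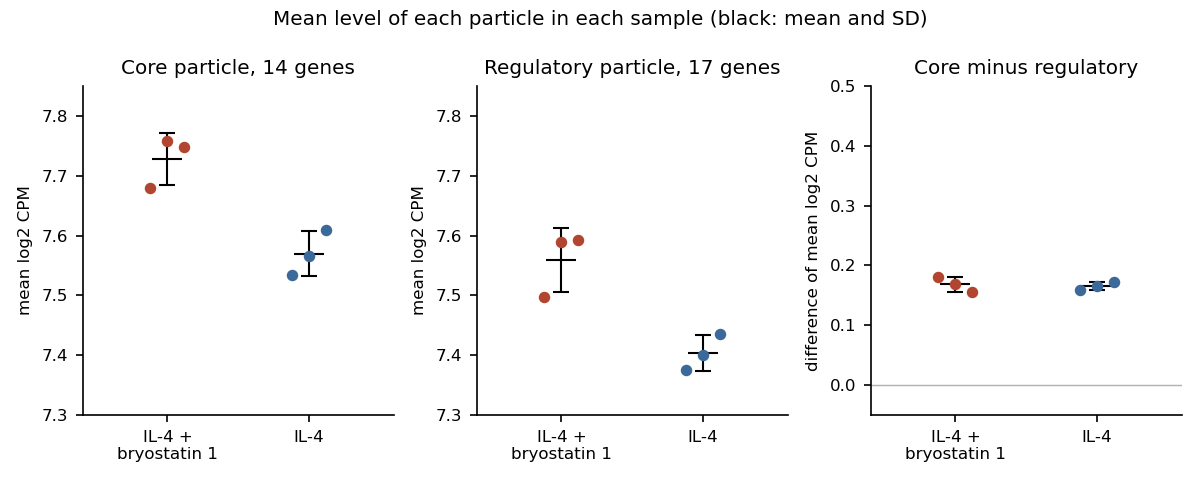
Mean log2 CPM of 14 core and 17 regulatory particle genes, and the difference of these means, in each IL-4 + bryostatin 1 sample (left) and IL-4 sample (right), with the mean and SD of 3 samples in black. The axes of the first 2 panels start at 7.3. Both particles lie higher with bryostatin 1, while the difference stays between 0.16 and 0.18 in all 6 samples.

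Levels of different subunits were compared per length, as CPM per kilobase of the transcript, for the 40 members whose transcript had a length in the GENCODE M21 annotation. Tested core genes with a length ran from 94.4 CPM per kilobase for Psma2 to 296 for Psma6 in IL-4 + bryostatin 1 samples, and from 87.6 for Psma2 to 236 for Psma6 in IL-4 samples. The order of Psma6, Psma7 and the catalytic subunits was the same in both groups: Psma6, then Psma7, Psmb7, Psmb6 and Psmb5, with 296, 268, 215, 202 and 150 CPM per kilobase in IL-4 + bryostatin 1 samples, against 236, 208, 192, 185 and 130 in IL-4 samples. Among regulatory genes with a length, Psmd13 was lowest, at 71.7 CPM per kilobase in IL-4 + bryostatin 1 samples and 66.7 in IL-4 samples. Psmd8 was highest in IL-4 + bryostatin 1 samples at 170.005 CPM per kilobase, and in IL-4 samples it had 133, below Psmc1 at 138. These lengths count untranslated parts, so a long transcript such as that of Psma2 lowers its value.

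Assembly chaperones are not part of the finished protease, and they split. Psmg1 and Psmg2 form a pair that builds the alpha ring, and both were called higher. Psmg1 had 43.6, 47.7 and 46.02 CPM in samples given IL-4 + bryostatin 1, against 38.004, 37.1 and 39.98 CPM in samples given IL-4, with no overlap (log2 fold change 0.25, SE 0.052, adjusted p = 4.02e-04). Psmg2 rose by a log2 fold change of 0.19. The second pair, Psmg3 and Psmg4, was not called. Psmg3 had a log2 fold change of 0.12 and Psmg4, the member with the lowest mean CPM of those tested, of 0.0053.

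Of the chaperones of the ATPase ring, Psmd10 was called higher at 0.18, though not without the second IL-4 sample (adjusted p = 0.0512), and Psmd9 was not called at 0.094. Psmd5, the third, was the lowest member: it had 65.2, 67.9 and 72.7 CPM in samples given IL-4 + bryostatin 1, against 71.2, 71.9 and 76.2 CPM in samples given IL-4. The groups overlapped, and the difference was not called (log2 fold change -0.094, SE 0.046, adjusted p = 0.094), but without the third IL-4 + bryostatin 1 sample it was lower with an adjusted p of 0.0387. In all, 3 of 7 chaperones were called higher and 0 lower, against 29.9% and 28.3% of all genes tested, with a median log2 fold change of 0.12.

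Among activators and the inhibitor, 2 of 6 genes were called higher, a share near the 29.9% of all genes tested. The median log2 fold change of the 6 was 0.062. Psme4, a large single-chain activator best known from spermatogenesis and DNA repair, had 166, 158 and 174 CPM in samples given IL-4 + bryostatin 1, against 130.4, 134 and 139 CPM in samples given IL-4. The groups were apart (log2 fold change 0.31, SE 0.041, adjusted p = 4.21e-06). Psme3, the nuclear activator, rose by a log2 fold change of 0.10 (adjusted p = 0.0234), a call that was lost without any one of 4 samples, the first or the second IL-4 sample and the second or the third IL-4 + bryostatin 1 sample (adjusted p between 0.0594 and 0.075).

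The interferon-inducible activator is made of the products of Psme1 and Psme2, and neither gene was called. Psme1 had 186, 205 and 198 CPM in samples given IL-4 + bryostatin 1, against 193, 189 and 202 CPM in samples given IL-4, with overlap (log2 fold change 0.0075, SE 0.041, adjusted p = 0.889). Psme2 had a log2 fold change of 0.023. Psme2b, a second locus with near-identical sequence to Psme2, had 89.1, 99.2 and 90.6 CPM in samples given IL-4 + bryostatin 1, against 87.9, 85.4 and 88.4 CPM in samples given IL-4. It was called only with total-count scaling or without the first IL-4 + bryostatin 1 sample, and reads of Psme2 and Psme2b may be divided between them by the counting, so both are uncertain. Psmf1, an inhibitor of the core in vitro, was not called at 0.034.

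The 2 genes matched by name only were both called higher. Psme3ip1 had 67.3, 72.01 and 68.1 CPM in samples given IL-4 + bryostatin 1, against 53.1, 60.3 and 58.3 CPM in samples given IL-4, with no overlap (log2 fold change 0.27, SE 0.049, adjusted p = 1.30e-04). Psmc3ip, a recombination cofactor, had 22.3, 24.4 and 20.005 CPM in samples given IL-4 + bryostatin 1, against 20.05, 19.7 and 18.6 CPM in samples given IL-4. Its groups overlapped (log2 fold change 0.19, adjusted p = 0.0369), and DESeq2 did not call it (adjusted p = 0.0962). Its call was also lost with summed rows and without the second or the third IL-4 sample. The same held without the first or the second IL-4 + bryostatin 1 sample. Without these 2 genes, an alternative chosen after the data were seen, 27 of 44 members were called higher, against 29.9% of all genes tested.

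The inducible catalytic subunits moved the other way. Psmb8, which replaces Psmb5, had 191, 196 and 201 CPM in samples given IL-4 + bryostatin 1, against 328, 329.7 and 329 CPM in samples given IL-4. Its groups were far apart (log2 fold change -0.75, SE 0.034, adjusted p = 2.40e-12). Psmb9, which replaces Psmb6, had 79.8, 79.1 and 79.1 CPM in samples given IL-4 + bryostatin 1, against 148, 145 and 145 CPM in samples given IL-4, and Psmb10, which replaces Psmb7, had 49.1, 48.1 and 52.4 CPM in samples given IL-4 + bryostatin 1, against 88.8, 83.3 and 80.2 CPM in samples given IL-4. They were called lower at log2 fold changes of -0.88 and -0.75, larger in size than any member's change.

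As a ratio of constitutive to inducible subunit within each sample, Psmb5 over Psmb8 was 0.659, 0.71 and 0.696 in the IL-4 + bryostatin 1 samples, against 0.361, 0.343 and 0.362 in the IL-4 samples. Psmb6 over Psmb9 was 1.96, 2.09 and 2.06 in the IL-4 + bryostatin 1 samples, against 0.964, 1.03 and 1.04 in the IL-4 samples. Psmb7 over Psmb10 was 5.04, 5.27 and 4.74 in the IL-4 + bryostatin 1 samples, against 2.44, 2.73 and 2.81 in the IL-4 samples. All of these ratios were higher in every IL-4 + bryostatin 1 sample, and they were not tested. In log2 terms the inducible subunits changed by -0.88 to -0.75 and the constitutive ones by 0.12 to 0.21.

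**Figure D4:**
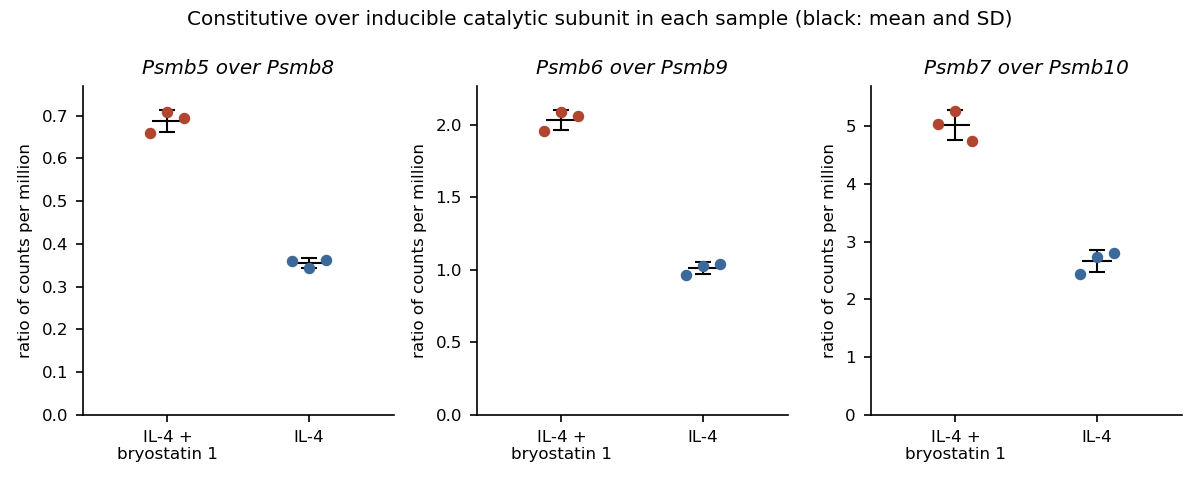
Ratio of CPM of each constitutive catalytic subunit to the inducible subunit that can replace it, in each IL-4 + bryostatin 1 sample (left) and IL-4 sample (right), with the mean and SD of 3 samples in black. The ratio of Psmb5 to Psmb8 averages 0.688 with bryostatin 1 and 0.355 without.

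Genes that act on or with the proteasome were taken as lists by function. Of 8 tested assembly factors and associated proteins, 4 were called higher, against 29.9% of all genes tested. Uchl5, a deubiquitinase bound to the regulatory particle, had a log2 fold change of 0.42, and Zfand5 of 0.34. Akirin2, which carries proteasomes into the nucleus, was higher at 0.31, and Txnl1 at 0.24. Pomp, which matures the core, was not called at 0.061, nor was Usp14, the other bound deubiquitinase, at 0.075. Paaf1 was not analysed here. Among 8 genes that deliver or extract ubiquitylated substrates, 6 were called higher, against the same 29.9%. These included the shuttle factor Rad23b at 0.22, the ubiquilins Ubqln1 and Ubqln4 at 0.28 and 0.31, and the segregase Vcp at 0.13. 

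Transcription of proteasome genes can be raised by NRF1, encoded by Nfe2l1, which is held in the endoplasmic reticulum, removed by the ligase encoded by Syvn1 and freed by the protease encoded by Ddi2. Nfe2l1 averaged 201 ± 4.07 CPM with IL-4 + bryostatin 1 and 162 ± 3.77 CPM with IL-4 (SD, n = 3 each) and was called higher (log2 fold change 0.31). Syvn1 averaged 116 ± 5.89 CPM with IL-4 + bryostatin 1 and 212 ± 11.004 CPM with IL-4 (SD, n = 3 each) and was called lower (-0.88). Ddi2 was higher at 0.16, and Ngly1, which removes sugars from NRF1, was lower at -0.14 by a small margin (adjusted p = 0.0496). Of the partners of NRF1, Mafg and Maff were higher, at 0.39 and 2.38, and Mafk was not called. Maff was low in both groups, averaging 5.17 CPM with IL-4 + bryostatin 1 and 0.989 CPM with IL-4. Sel1l, the partner of the Syvn1 ligase, was higher at 0.094. Nfe2l2, which encodes the related factor NRF2, was lower at -0.46. With these genes and the 3 NF-Y subunit genes given beside the promoters, 6 of 12 tested genes of the list were higher and 5 lower. Of all genes tested, 29.9% were called higher and 28.3% lower.

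Of the genes that encode ubiquitin, Ubb and Rps27a were not called, at log2 fold changes of 0.042 and -0.033. The E1 enzymes that charge ubiquitin, Uba1 and Uba6, were called higher at 0.17 and 0.28. Other multi-subunit complexes of the cytosol gave different medians. All 8 genes of the CCT chaperonin, a folding machine for actin and tubulin, were called higher, with a median log2 fold change of 0.33. Of 10 genes of the COP9 signalosome, which resembles the lid of the regulatory particle, 3 were called higher and 2 lower, close to the 29.9% and 28.3% of all genes tested, with a median of 0.029. The median of the proteasome members lay between these, and no difference between the lists was tested.

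**Figure D5:**
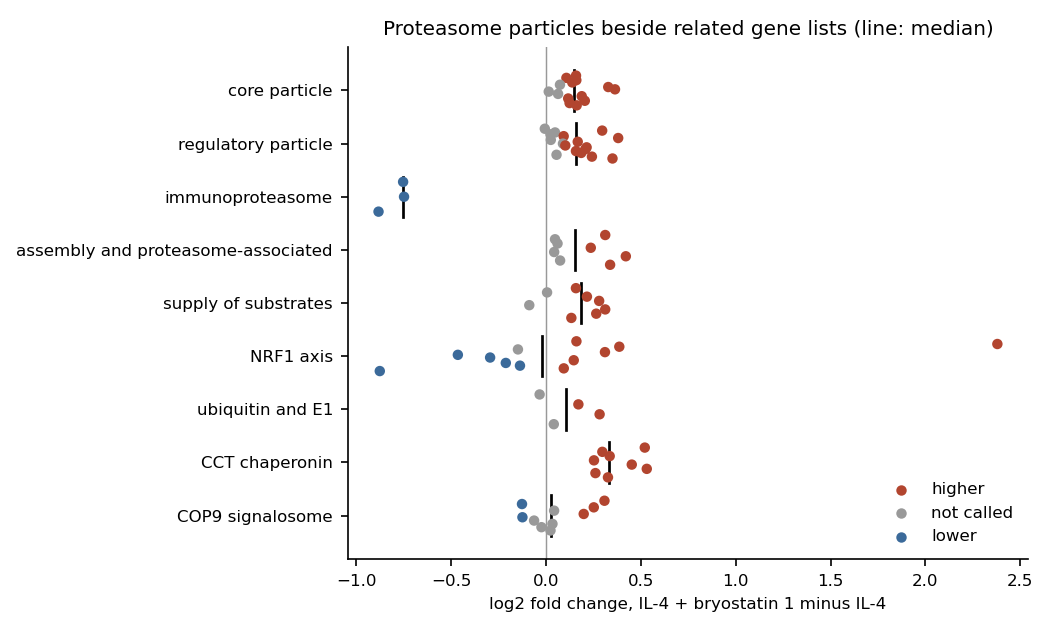
Log2 fold change (IL-4 + bryostatin 1 minus IL-4) of each tested gene in the core and regulatory particles and in 7 related lists, with the median of each list as a black line. Red genes were called higher, blue genes lower and grey genes were not called. Both particles lie just right of 0, the 3 immunoproteasome genes lie left of -0.7, and the CCT genes lie furthest right as a group.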

How the data were processed

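RNA from 6 samples of mouse B cells was sequenced with a directional library kit. The authors used cutadapt and sickle for trimming, Hisat2 for mapping, Samtools for sorting and featureCounts for counting. They deposited 1 table of read counts (whole numbers, 1 row for each RefSeq transcript) that covers both groups. Its columns headed I and IB were matched by initials and replicate number to the samples titled IL-4 and IL-4 with bryostatin 1. Not given in the sources used here were tool versions, the genome build and the strandedness chosen in counting. Beside the counts stand the authors' own log2 fold changes, p-values and q-values, none of which was used.

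Each gene kept its row of highest mean count, and rows that were not mRNA were dropped for members. Genes were filtered with filterByExpr (minimum count 10, minimum total 15), which left 13864. Libraries were scaled by a rewritten DEGES procedure (TMM factors, exact test, removal of genes past an FDR of 0.1, at least 5% of them, 3 rounds), and groups were compared in R 4.3.3 by edgeR 4.0.16 (quasi-likelihood F test) with 4 residual degrees of freedom and no covariate. P-values were adjusted by Benjamini and Hochberg over all genes tested, and an adjusted p under 0.05 was a call. SE was taken as the absolute log2 fold change over the root of F, and DESeq2 1.42.0 was an alternative. Total counts lay between 19959958 and 24896409 per sample, and no 2 replicates agreed within sampling noise. The fit was tested on simulated data. Per-sample values came from Python 3.11.15. Values in every sample are given for the catalytic subunits, for the highest and lowest member of each subgroup and for members whose call changed under an alternative that kept all samples; Psma6, Psmc2, Psmc3 and the inducible subunits were added after their values were seen. The members and lists were chosen with earlier results of these data known. A few genes of the B cell marker and ubiquitin lists are not reported here, and values over these lists leave them out.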

Additional observations from a re-analysis of the deposited data

How the results depend on the processing

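Of the 29 members called higher, 22 were called under each of 14 alternatives (8 that kept all samples and 6 that left out 1), and no call reversed. With all samples kept, members called higher numbered between 26 (DESeq2, or with all rows of a gene summed) and 34 (total counts only). Over all genes, 3546 of 13864 were called higher with DESeq2, 4165 of 14931 with summed rows and 4527 of 13864 with total counts only. At an adjusted p of 0.01, 23 members passed, and the count over all genes was not taken. Leaving out each sample gave 22 to 33 members higher and 0 to 1 lower. Over all genes the same runs gave 3720 to 4050 higher and 3504 to 3783 lower. The calls lost with all samples kept were those of Psma2, Psmc5, Psmd13 and Psmc3ip. Of the 17 members not called, 8 were called under some alternative: Psma5, Psmb2, Psmc3, Psmd5, Psmd6, Psmd12, Psmg3 and Psme2b. The cause was not tested.

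Whether the replicate numbers pair the samples was not settled. Correlations of deviations between same-numbered samples were 0.13, 0.040 and 0.049, and those between other pairs ran from -0.091 to 0.043. The replicate block gave 30 members higher and 1 lower, Psmd5 (adjusted p = 0.0477 by edgeR), and called Psmd12 higher (adjusted p = 0.0389). The median log2 fold change of the members ranged from 0.12 to 0.16 over the 14 alternatives. With 3 samples a group, changes of the size of Psmc5 lie near what the SE of about 0.04 can show.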

Other observations

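Psma8, the germ cell alpha subunit, was counted in every IL-4 + bryostatin 1 sample (13, 3 and 3 counts) and in 1 of 3 IL-4 samples (0, 1 and 0 counts). Reads of its close relative Psma7 outnumber these by far, and how many of the counts belong to either gene was not tested.

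Psma5-ps, a copy of Psma5 with its own row, had a mean of 11.8 CPM in IL-4 + bryostatin 1 samples and 10.5 CPM in IL-4 samples, and it was not called (log2 fold change 0.17, SE 0.097, adjusted p = 0.15 by edgeR).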
